A study of Saccharomyces cerevisiae with 6 samples.

Results

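Yeast makes its nuclear RNA with RNA polymerases I, II and III, and the subunit genes of these enzymes were followed here in gcn4-delta and wild-type cells. The genes were taken by symbol, as RET1 and every symbol made of RPA, RPB, RPC or RPO and a number. This gave 32 genes of the 5449 Saccharomyces cerevisiae genes measured, each with 1 probe set. They cover all 31 subunits of the nuclear enzymes as listed from textbook knowledge: 7 are found only in Pol I, 7 only in Pol II, 10 only in Pol III, 2 in Pol I and Pol III, and 5 in all 3. The remaining gene, RPO41, encodes the mitochondrial RNA polymerase, which works without these subunits and is kept apart below.

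The data came from Affymetrix arrays of total RNA, with 3 arrays of an S288C gcn4-delta MAT a strain grown with 0.1 mM 3AT and 3 arrays of the S288C MAT a wild type grown with 10 mM 3AT. Gcn4 is the activator of amino acid biosynthesis genes, and 3AT (aminotriazole) blocks the histidine pathway at the enzyme made by HIS3. Both strains grew aerobically in YNB medium in chemostats supplied with glucose, at 30 °C and pH 5 and a dilution rate of 0.10 per hour. Strain and 3AT dose differ together and cannot be told apart, and where the replicates were drawn from is not stated, so p-values measure the spread between these samples only.

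RNA polymerase I transcribes the large ribosomal RNA precursor, Pol II the messenger RNAs, and Pol III the transfer RNAs and 5S ribosomal RNA. The enzymes share a common core plan, and several subunits are the same protein in more than one of them. Growing yeast cells spend much of their transcription on ribosomal and transfer RNA, and starved cells make less of it. The arrays measured the messenger RNAs of the subunits, not the activity of the enzymes, in RNA of whole cultures, where fewer cells of a kind and less RNA per cell cannot be told apart.

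GCN4 (YEL009C) read an RMA intensity of 14.5, 213 and 11.4 on the gcn4-delta arrays 1, 2 and 3, against 7312, 7309 and 7248 on the wild-type arrays. Replicate 2 of the deletion strain was thus above the background level of 17.9 to 25.2 set by probe sets of other genes. All 32 polymerase genes were above that level on all 6 arrays, as were 5275 of all 5449 genes. Median intensities over the genes' probe sets lay between 665 and 712. Of 6 markers of MAT a cells all were well above background (MFA1 at a log2 change of 0.51, adjusted p = 0.144, limma), and their summed intensity was 11461 to 12136 in gcn4-delta and 8111 to 12097 in the wild type. The 4 measured markers of MATalpha cells summed to 694 to 727 in gcn4-delta and 604 to 934 in the wild type, and none was called. Each of these 4 was above background on all 6 arrays, so that level does not tell the 2 marker sets apart. MF(ALPHA)1, the gene of the alpha pheromone, was at -0.48 (adjusted p = 0.609), with omissions of 1 array giving -0.88 to 0.21, as wild type replicate 3 read 259 and replicates 1 and 2 read 58.0 and 66.9. The 6 sporulation markers summed to 814 to 900.1 in gcn4-delta and 828 to 961 in the wild type. NDT80, a meiotic activator, was called at 0.48 and SPO21, of the spindle pole body in meiosis, at -1.37 (adjusted p = 0.0243 and 0.00148, limma). The call of NDT80 was lost without gcn4-delta replicate 1, 2 or 3 (adjusted p = 0.133, 0.0734 and 0.0675) or wild type replicate 3 (0.0518). Whether the marker levels bear on the polymerase genes was not tested.

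Most polymerase genes differed little between the strains, and 2 rose in gcn4-delta while 0 fell. These were RPB5, the subunit common to all 3 enzymes that sits at their downstream jaw, and RPB9, a Pol II subunit with roles in start site choice and fidelity. At an adjusted p under 0.05 (limma, Benjamini-Hochberg over all probe sets of the species), 5.34% of all genes were higher, 6.0% lower and 11.3% called in either direction, against 6.25% of the 32 polymerase genes. At an unadjusted p under 0.05, 5 of the 32 passed, as did 28.6% of all genes. The median size of the change, sign ignored, was 0.16 on the log2 scale over the 32 genes and 0.18 over all genes. No polymerase gene changed 2-fold, and the 95% intervals of all 32 lay between -0.99 and 0.80. The interval covered 0 for 27 of them.

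**Figure D1:**
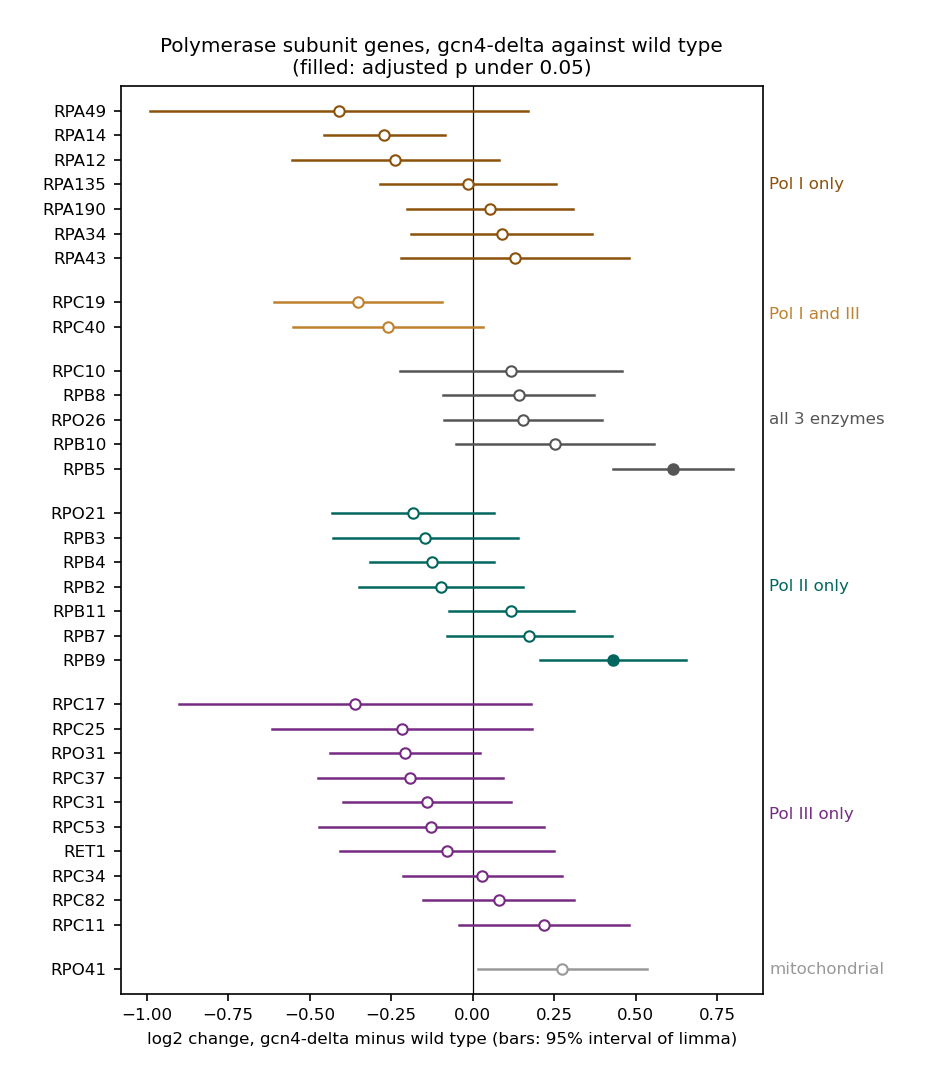
Log2 change of each subunit gene, gcn4-delta minus wild type (3 arrays each), with limma's 95% interval as a bar, grouped by the enzymes that hold the subunit. Filled points passed an adjusted p of 0.05; only RPB5, at 0.61, and RPB9, at 0.43, did so.

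RPB5 (YBR154C) read 1257, 1157 and 1186 in gcn4-delta, against 791, 789.9 and 769 in the wild type. All gcn4-delta arrays lay far above all wild-type arrays. The means were 1199.8 ± 51.3 in gcn4-delta and 783 ± 12.3 in the wild type (SD, n = 3 each). The log2 change was 0.61 ± 0.08 (SE, adjusted p = 0.00443, limma), or 1.53-fold. Leaving out any 1 array gave 0.58 to 0.64, with an adjusted p of at most 0.0401.

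RPB9 (YGL070C) read 623, 665 and 658 in gcn4-delta and 492, 437 and 518 in the wild type, and the groups did not overlap. It rose by 0.43 ± 0.09 on the log2 scale (SE, adjusted p = 0.0323, limma), or 1.35-fold. Its call was lost without gcn4-delta replicate 1, 2 or 3 (adjusted p = 0.118, 0.110 and 0.0941) and without wild type replicate 2 (0.0720), at changes of 0.36 to 0.46.

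The other subunits common to all 3 enzymes had positive changes that did not pass. RPB10 and RPC10 encode small zinc-binding subunits of the assembly platform. RPB10 (YOR210W) read 1898, 1734 and 1867 in gcn4-delta and 1776, 1579 and 1299 in the wild type, so that wild type replicate 1 overlapped the deletion strain. Its change was 0.25 (95% interval -0.05 to 0.56, adjusted p = 0.244). RPO26, the Rpb6 subunit at the base of the clamp, was at 0.15, RPB8 at 0.14 and RPC10 at 0.12, each with overlapping groups. Over the 5 common genes the median change was 0.15, against 0.035 over all genes. RPB5 had the largest change of the 5. Its lower interval bound of 0.43 lay above the point estimates of the other 4. It lay below the upper bounds of RPB10 (0.56) and RPC10 (0.46), and the difference between RPB5 and these genes was not tested.

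RPC40 and RPC19, which form the alpha-like pair that starts the assembly of Pol I and Pol III, both had negative changes. RPC19 (YNL113W) read 1314, 1172 and 1453 in gcn4-delta and 1787, 1566 and 1658 in the wild type. The groups did not overlap, and the change was -0.35 ± 0.11 (SE, 95% interval -0.61 to -0.09), which did not pass after adjustment (adjusted p = 0.0875, limma). RPC40 (YPR110C) read 1256, 1185 and 1416 in gcn4-delta and 1764, 1485 and 1381 in the wild type. Its change was -0.26 (adjusted p = 0.217), and gcn4-delta replicate 3 lay above wild type replicate 3. Leaving out wild type replicate 1 gave -0.16.

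Among Pol I genes, the 2 that build the active centre hardly differed. RPA190 (YOR341W), the largest subunit, read 1534, 1449 and 1628 in gcn4-delta and 1616, 1534 and 1309 in the wild type, at a change of 0.053 (95% interval -0.20 to 0.31). RPA135 (YPR010C), the other large subunit, read 1798, 1749 and 2151 in gcn4-delta and 1995, 1998 and 1749.6 in the wild type, at -0.015 (-0.28 to 0.25). In both genes the arrays of the strains were intermixed. RPA190 and the stalk gene RPA43 (YOR340C) are neighbours transcribed away from each other in the R64 reference table, and RPA43 was at 0.13. RPA34, of the pair of subunits related to the Pol II factor TFIIF, was at 0.089.

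RPA14 (YDR156W), the partner of RPA43 in the stalk, was the Pol I gene that came nearest to a call. It read 1166, 1224 and 1213 in gcn4-delta and 1505, 1391 and 1452 in the wild type, with no overlap and little spread. Its change was -0.27 ± 0.08 (SE, adjusted p = 0.0741, limma). With array weights in the fit RPA14, RPC19 and RPB10 passed (adjusted p = 0.0200, 0.0347 and 0.0379), in a fit that called 15.2% of all genes higher and 11.3% lower. RPA12, which acts in RNA cleavage and termination, was at -0.24, or -0.097 without wild type replicate 1. RPA49 (YNL248C), the partner of RPA34, read 502, 612 and 650.3 in gcn4-delta and 1142, 608 and 676 in the wild type. Wild type replicate 1 alone was high, and the change of -0.41 (adjusted p = 0.311) was -0.13 without it.

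Pol II genes other than RPB9 lay between -0.18 and 0.17. RPO21 (YDL140C), the largest subunit with the repeated carboxy-terminal tail, read 1888, 1924 and 2274 in gcn4-delta and 2294, 2163 and 2436 in the wild type, at -0.18 (95% interval -0.43 to 0.07, adjusted p = 0.296). RPB2 (YOR151C), its partner in the active centre, read 2773, 2509.7 and 3113 in gcn4-delta and 2983, 3144 and 2825 in the wild type, at -0.097 (-0.35 to 0.15). The strains overlapped in both. The alpha-like subunits RPB3 and RPB11 were at -0.15 and 0.12, and the stalk subunits RPB4 and RPB7 at -0.13 and 0.17. None of these passed.

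Of 10 Pol III genes 7 had changes below 0, as did 44.3% of all genes, and none passed. Without wild type replicate 1 it was 6 of 10, and 3 of the 10 turned direction when 1 array was left out. RPO31 (YOR116C), the largest subunit, read 898, 792 and 954 in gcn4-delta and 1008, 1055 and 982 in the wild type, without overlap. Its change was -0.21 (95% interval -0.44 to 0.02, adjusted p = 0.215). RET1 (YOR207C), the other large subunit, read 1573, 1341 and 1803 in gcn4-delta and 1819, 1685 and 1463 in the wild type. The groups overlapped, and the change was -0.079. The TFIIF-like pair RPC37 and RPC53, which acts in termination, was at -0.19 and -0.13. The initiation subcomplex of RPC82, RPC34 and RPC31 was at 0.080, 0.030 and -0.14. RPC11, which acts in RNA cleavage and in starting anew on the same gene, was at 0.22 (adjusted p = 0.237).

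The Pol III stalk genes RPC17 and RPC25 depended on wild type replicate 1. RPC17 (YJL011C) read 278, 254 and 342 in gcn4-delta and 522, 329 and 298 in the wild type. Its change was -0.36 (adjusted p = 0.337), and -0.12 without wild type replicate 1. RPC25 was at -0.22, and at -0.053 without that array.

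**Figure D2:**
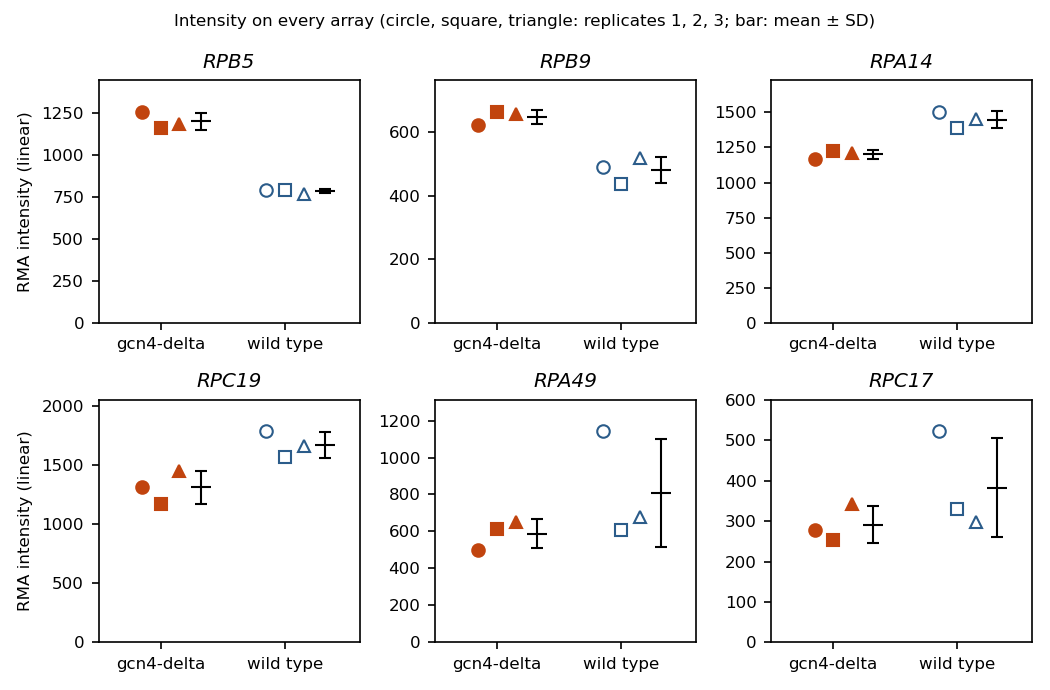
RMA intensity (linear scale) on each array for 6 subunit genes, with gcn4-delta on the left and the wild type on the right of each panel; bars are mean ± SD of 3 arrays. RPB5, RPB9, RPA14 and RPC19 separate the strains, whereas in RPA49 and RPC17 wild type replicate 1, at 1142 and 522, stands above all other arrays.

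RPO41 (YFL036W), for the mitochondrial polymerase, read 1589, 1412 and 1513 in gcn4-delta and 1157, 1414 and 1171 in the wild type. Wild type replicate 2 lay level with gcn4-delta replicate 2, and the change of 0.27 (95% interval 0.02 to 0.53) did not pass (adjusted p = 0.156, limma). MTF1, the initiation factor of that enzyme, was at -0.27 (adjusted p = 0.246).

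Set beside each other, the enzymes had small median changes. The median log2 change was -0.015 over the 7 genes found only in Pol I, -0.097 over the 7 only in Pol II and -0.13 over the 10 only in Pol III, against 0.035 over all genes. Counting shared subunits, it was 0.071 for the 14 genes of Pol I, 0.13 for the 12 of Pol II and -0.079 for the 17 of Pol III. These sets share members, and none is called apart from another here. In 3 genes all gcn4-delta arrays lay above all wild-type arrays (RPB5, RPB9 and RPB11), as in 21.1% of all genes. In 5 genes (RPA14, RPA12, RPC19, RPB4 and RPO31) they all lay below, as in 14.6% of all genes, and the groups failed to overlap in either direction in 35.7% of all genes.

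**Figure D3:**
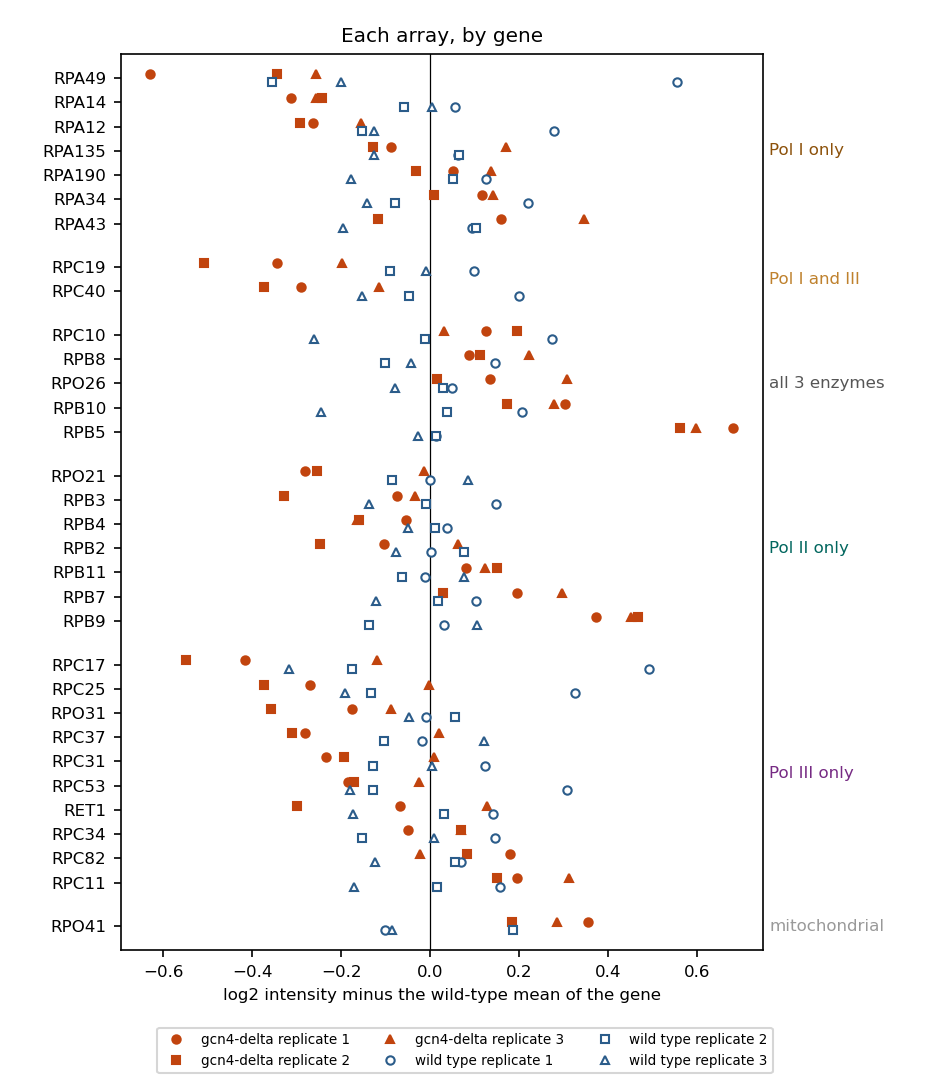
Log2 intensity of every subunit gene on every array, less the gene's mean over the 3 wild-type arrays, with filled symbols for gcn4-delta and open symbols for the wild type. The RPB5 and RPB9 points of gcn4-delta lie right of all wild-type points, and the open circle of wild type replicate 1 lies far right for RPA49 and RPC17.

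Wild type replicate 1 stood high on these genes. It was the highest wild-type array in 23 of 31 nuclear subunit genes, as in 47.1% of all genes, and in all 7 shared subunits. Its median log2 excess over wild type replicates 2 and 3 was 0.19 over the nuclear subunits, against 0.058 over all genes. The excess was 0.22 over the genes only in Pol III, 0.19 only in Pol I and 0.048 only in Pol II. Over the genes only in Pol III the median on single arrays, as a deviation from the mean of both strains, was -0.097, -0.17 and 0.071 in gcn4-delta replicates 1, 2 and 3. It was 0.16, -0.016 and -0.10 in wild type replicates 1, 2 and 3, so the strains overlapped. Without wild type replicate 1 the medians were 0.016 over the genes only in Pol I, -0.072 only in Pol II and -0.031 only in Pol III. Counting shared subunits, they were 0.15, 0.20 and 0.027, against 0.051 for all genes. In the fit without that array RPB5 and RPB9 stayed called (adjusted p = 0.0070 and 0.0394, limma). That fit called 2 polymerase genes higher and 0 lower, against 6.51% and 6.57% of all genes.

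**Figure D4:**
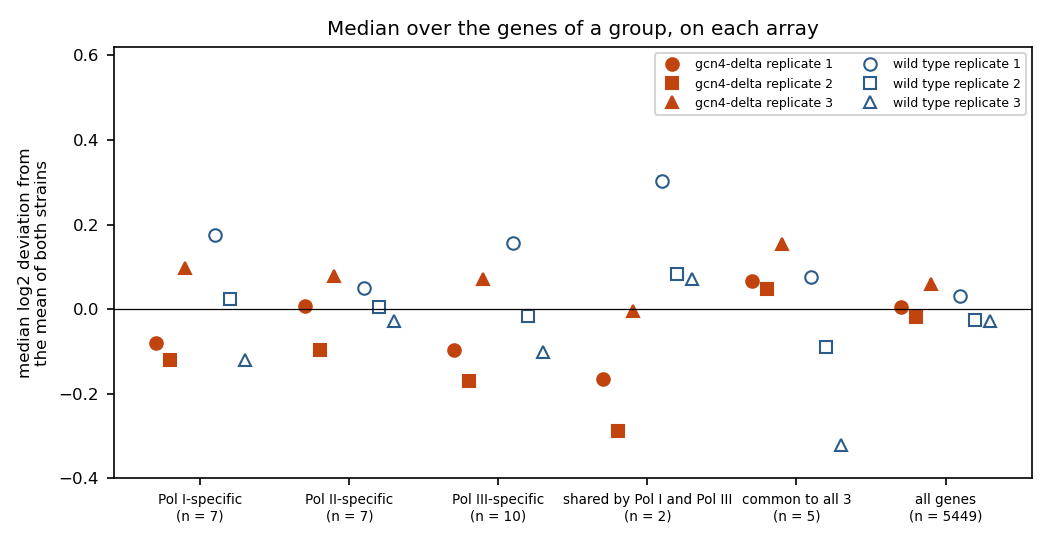
Median log2 deviation from the mean of both strains, over the genes of each group, on each array (filled: gcn4-delta; open: wild type; n is the number of genes). The arrays of the strains overlap for the genes found in 1 enzyme only. They do not for the median of the 2 genes RPC40 and RPC19, where gcn4-delta lies between -0.29 and -0.0051 and the wild type between 0.072 and 0.30. Neither gene was called, and RPC40 taken singly overlaps.

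Subunits that hold the same place in different enzymes were compared pair by pair, through the log2 difference of the genes on each array. Of 17 such pairs, 9 had no overlap between the strains, as had 39.2% of all pairs that can be formed from the measured genes. Each of these had p = 0.10 in an exact two-sided permutation test over the 6 arrays, the smallest that 3 against 3 arrays allow. The adjusted p of these pairs over the 17 pairs was 0.189. Even the smallest possible p lies above the threshold, so this test could not call any pair and does not decide whether their balance differed. The widest gap was in the zinc ribbon subunits, RPA12 of Pol I against RPB9 of Pol II. Their difference was -0.67 ± 0.15, as RPB9 was at 0.43 and RPA12 at -0.24, and -0.54 without wild type replicate 1. For pairs, the SE is pooled over the 6 arrays and is not the limma SE given for single genes. RPA12 minus its Pol III counterpart RPC11 was -0.46 ± 0.09, or -0.40 without that array. RPC11 minus RPB9 was -0.21 ± 0.15, with overlap.

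The alpha-like pair came next: RPC19 minus RPB11 was -0.47 ± 0.12, and RPC40 minus RPB3 was -0.11 ± 0.06, both without overlap. The RPC40 difference was -0.063 without gcn4-delta replicate 1. At the base of the stalk, RPC25 of Pol III minus RPB7 was -0.39 ± 0.12, or -0.28 without wild type replicate 1. RPA43 minus RPC25 was 0.35 ± 0.14, or 0.23 without that array, and RPA43 minus RPB7 was -0.044 ± 0.07. At the tip, RPA14 minus RPB4 was -0.14 ± 0.07 without overlap, or -0.088 without gcn4-delta replicate 1. The other tip pairs overlapped: RPC17 minus RPB4 was -0.23 ± 0.27, or -0.0079 without wild type replicate 1, and RPA14 minus RPC17 was 0.090 ± 0.26. In the largest subunits, RPA190 minus RPO31 was 0.26 ± 0.08 without overlap, while RPO31 minus RPO21 was -0.024 ± 0.10. RPA190 minus RPO21 was 0.24 ± 0.14, also without overlap, and 0.10 to 0.30 when 1 array was left out. The second large subunits RPA135, RPB2 and RET1 differed from each other by at most 0.082, with overlap in all 3 pairs.

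**Figure D5:**
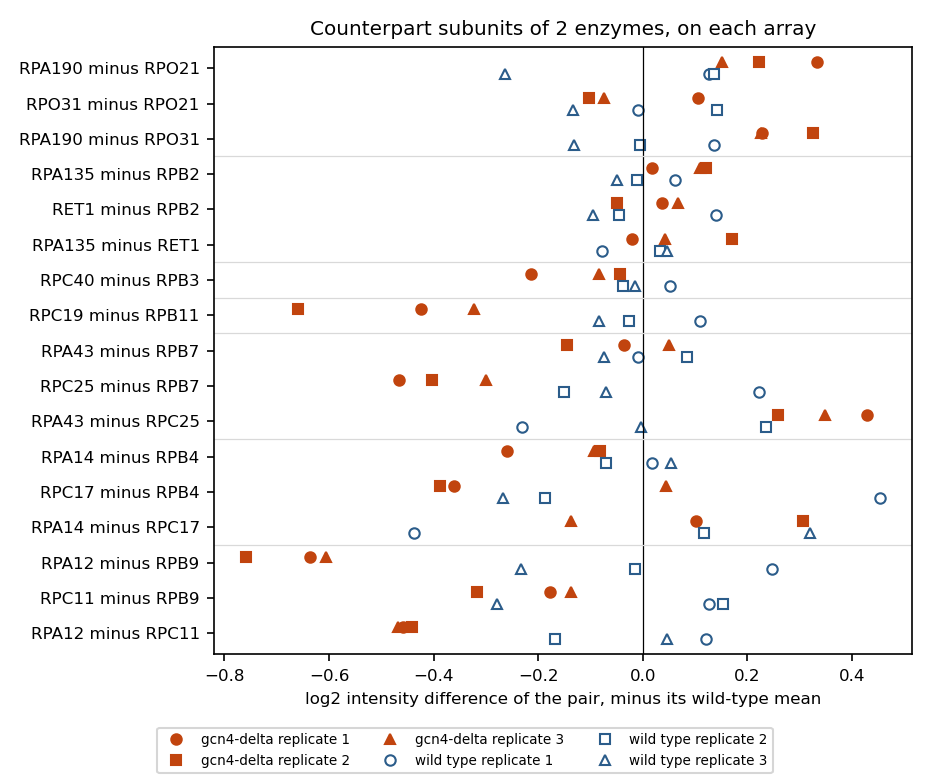
Log2 intensity difference of counterpart subunits on each array, less the wild-type mean of that difference, so 0 means the same balance as in the wild type (filled: gcn4-delta; open: wild type). The 3 gcn4-delta arrays lie left of all wild-type arrays for RPA12 minus RPB9 and RPC19 minus RPB11, whereas RET1 minus RPB2 overlaps.

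Genes that work with the polymerases were also mostly not called. Of 7 genes for the assembly and nuclear import of polymerases, 1 fell and 6 did not pass, where 6.0% of all genes fell, at a median of -0.23. The gene that fell was GPN2 (YOR262W), a GTPase of polymerase assembly, which read 394, 387 and 441 in gcn4-delta and 716, 576 and 632 in the wild type. Its log2 change was -0.65 ± 0.11 (SE, adjusted p = 0.0137, limma). The call was lost without gcn4-delta replicate 1 or 2 (adjusted p = 0.0784 and 0.0643), at log2 changes of -0.63 and -0.62. The median of the list was -0.11 without wild type replicate 1, and that fit called 2 of the 7 lower, against 6.57% of all genes.

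Of 9 Pol I initiation factor genes 0 passed, where 11.3% of all genes were called in either direction. All 9 had changes above 0, as had 3037 of all 5449 genes. Their median was 0.15, against 0.035 over all genes. RRN5, of the upstream activating factor, had the largest at 0.37 (adjusted p = 0.156). Of 10 Pol III factor genes 0 passed, against 11.3% of all genes, at a median of 0.12. PZF1, which encodes TFIIIA, was at -0.36 with wide spread (adjusted p = 0.545), or -0.14 without wild type replicate 1. MAF1, the repressor of Pol III, was named after its values were seen: it read 666, 656 and 671 in gcn4-delta and 501, 561 and 614 in the wild type, without overlap, at 0.26 (adjusted p = 0.145).

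Of 19 general factor genes of Pol II 0 passed (median -0.091), where 11.3% of all genes were called in either direction. KIN28, the kinase of TFIIH, was at -0.31 (adjusted p = 0.0886, limma). Of 17 elongation and tail-modifying factor genes of Pol II 0 passed either, against 11.3% of all genes. Their median was -0.063, and 0.044 without wild type replicate 1. CDC73, of the Paf1 complex, was at -0.30 (adjusted p = 0.247, limma), or -0.16 without that array.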

How the data were processed

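Total RNA of the 6 samples was hybridised to 1 array each. The authors deposited linear probe set intensity from RMA, a method named in the submitters' processing notes; its version was not given in the sources used here. As a rule RMA gives all arrays one distribution, so a shift of most transcripts is not seen. Log2 was taken with no pseudocount. Of 10928 probe sets, 5498 matched S. cerevisiae genes (5449 genes) through the platform annotation and the R64 reference table, and a gene was represented by its brightest probe set. The background level is the 95th percentile of 1746 named probe sets of no S. cerevisiae gene. The array design's build is not given, so no coordinates are printed. No sequence was analysed here, and the planned motif search was not run.

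Each probe set entered a limma fit (version 3.58.1, R 4.3.3; lmFit and eBayes, gcn4-delta minus wild type, no covariates), with Benjamini-Hochberg adjustment over 5498 probe sets and a threshold of 0.05. Counterpart pairs, set by structural homology, had an exact permutation test. On simulated data for this comparison (5498 probe sets) the test recovered 43.3% of changes of 0.5, 89.6% of changes of 1 and 98.5% of changes of 2 on the log2 scale. The simulated noise was independent between probe sets, and 67, 67 and 66 probe sets were changed by these sizes. That is a smaller share than was called in the real data, so the real recovery may differ. The number of arrays limits precision. Means ± SD are of linear intensities.

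The members, lists and alternatives were chosen with earlier results of these data known. All members are named; values by array are given for called genes and the largest subunits, and, chosen after their values were seen, for RPA14, RPC19, RPC40, RPB10, RPA49, RPC17 and RPO41. From each other list at most 2 called genes per direction, or else the largest change, are named. Plots used Python 3.11.15 and matplotlib 3.10.9.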

Additional observations from a re-analysis of the deposited data

How the results depend on the processing

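Replicate numbers are shared by the strains, and whether same-numbered arrays were paired is not stated. Over all genes, same-numbered arrays deviated in opposite ways (correlations of -0.34, -0.39 and -0.23), and different-numbered arrays gave -0.12 to 0.56. These deviations are taken within the 3 arrays of a strain, so they cannot decide whether arrays were paired. With the replicate number as a block, 0 polymerase genes were called (RPB5 at adjusted p = 0.0519), and over all genes 153 were lower and 57 higher, against 327 and 291. With array weights, whose estimation gave a convergence warning, 3 polymerase genes were higher and 2 lower, and over all genes 614 were lower and 829 higher. Leaving out 1 array in turn gave 1 to 2 polymerase genes higher and 0 lower, and 158 to 358 genes lower and 62 to 355 higher over all genes. Medians over the genes found in 1 enzyme only were -0.11 to 0.042 for Pol I, -0.14 to -0.021 for Pol II (the last without gcn4-delta replicate 2) and -0.20 to -0.031 for Pol III. The cause of these shifts was not tested, beyond 1 sample fewer. In those omissions 6 of 32 genes, none of them called, turned direction: RPA135 (-0.11 to 0.042), RET1 (-0.18 to 0.030), RPC53 (-0.22 to 0.027), RPC34 (-0.047 to 0.10), RPA190 (-0.036 to 0.12) and RPC10 (-0.013 to 0.25). So did the differences RPO31 minus RPO21 (-0.091 to 0.046), RPA43 minus RPB7 (-0.091 to 0.0063), RPA14 minus RPC17 (-0.13 to 0.25) and RET1 minus RPB2 (-0.030 to 0.088). Repeated quantile normalization gave medians of 0.027 over the genes only in Pol I and -0.029 only in Pol II. It turned RPA135 to 0.027, RPC34 to -0.011 and RET1 minus RPB2 to -0.013. RPB5 and RPB9 kept their calls, with no other polymerase gene added, under that setting, centring on array medians, dropping the dimmest 25% of probe sets (which left 30 of the 32 genes), trended robust variances, and averaging probe sets within genes.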

Other observations

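Genes that use the products of Pol I and Pol III were set beside the subunits. Of 39 ribosome assembly genes, 2 rose in gcn4-delta, 0 fell and 37 did not pass, where 5.34% of all genes rose and 6.0% fell, at a median log2 change of 0.025, and of 0.12 without wild type replicate 1. HAS1, a helicase of pre-ribosomes, read 717, 708 and 847 in gcn4-delta and 535, 549 and 586 in the wild type (log2 change 0.44, adjusted p = 0.0387, limma). GAR1, of the box H/ACA particles that modify ribosomal RNA, read 2062, 2084 and 2257 in gcn4-delta and 1633, 1562 and 1644 in the wild type (0.40, adjusted p = 0.0241). The call of HAS1 was lost in each omission of 1 array (adjusted p up to 0.122), and that of GAR1 in each except that of wild type replicate 1 (up to 0.110). Of 127 ribosomal protein genes 4 rose and 0 fell, where 5.34% of all genes rose and 6.0% fell, at a median of 0.10. Changes were above 0 in 120 of the 127, and in 3037 of all 5449 genes. All gcn4-delta arrays lay above all wild-type arrays in 35 of the 127 and below them in 0, against 21.1% and 14.6% of all genes. Without wild type replicate 1, 6 were called higher, at a median of 0.16. The called genes with the largest changes were RPS14B, at 0.68, and RPL22B, at 0.41 (adjusted p = 0.0460 and 0.0236, limma). The call of RPS14B was lost in each omission except that of wild type replicate 1, and that of RPL22B in 4 of 6 (adjusted p up to 0.142 and 0.123). Many of these genes have near-identical copies that the probes may not tell apart. For all genes the median was 0.035.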
